A study of Mus musculus with 40 samples.

Results

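The genes described here are 7 genes of neuronal chloride handling: the cation-chloride cotransporters *Slc12a2* (NKCC1) and *Slc12a5* (KCC2), the kinases *Wnk1*, *Wnk2* and *Stk39* (SPAK), the chloride channel *Clcn2* (ClC-2) and the vesicular chloride/proton exchanger *Clcn3* (ClC-3). They were picked by gene symbol as a functional group, with earlier results of these data known, by a rule that uses no measured value, and each matched 1 of the 47643 Ensembl genes counted in every library. On mm10, *Slc12a2* (ENSMUSG00000024597) lies at chr18:57878678-57946821, *Slc12a5* (ENSMUSG00000017740) at chr2:164960802-164999731, and *Stk39* (ENSMUSG00000027030) at chr2:68210445-68472268. *Wnk1* (ENSMUSG00000045962) lies at chr6:119923969-120038672, *Wnk2* (ENSMUSG00000037989) at chr13:49036303-49148014, *Clcn2* (ENSMUSG00000022843) at chr16:20702964-20717746, and *Clcn3* (ENSMUSG00000004319) at chr8:60910389-60983300. All 7 are protein-coding, and the counts were made on their exons.

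GABA, the main inhibitory transmitter of the brain, opens chloride channels, so its effect on a neuron depends on how much chloride the cell holds. NKCC1 carries chloride into the cell together with sodium and potassium, and KCC2, which is restricted to neurons, carries chloride out together with potassium. During postnatal maturation KCC2 rises relative to NKCC1 in forebrain neurons and intracellular chloride falls. WNK kinases respond to chloride and to cell volume and activate SPAK, which phosphorylates both cotransporters, stimulating NKCC1 and inhibiting KCC2. ClC-2 is a plasma membrane channel of neurons and glia, and ClC-3 acts on endosomes and synaptic vesicles. Their activity is also set by phosphorylation, trafficking and protein amount, none of which RNA-seq measures.

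RNA was measured in 40 libraries, 20 of hippocampus and 20 of frontal cortex, from wild-type Swiss Webster mice, an outbred stock. The mice were raised germ-free and were then given a fecal transplant from 1 of 10 donors with refractory epilepsy, either the stool collected before the ketogenic diet (pre-KD) or the stool collected on it (post-KD), which gives 10 libraries for each region and condition. By the study's methods the recipients were juvenile females, 6 to 8 weeks old, on a control diet, so they never ate the ketogenic diet, they carried no epilepsy mutation, and each library was a pool of several mice of 1 cohort. The replicate is therefore the cohort. Pre-KD libraries are the controls, and neither group is free of transplanted microbes.

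Between 1140756 and 2095352 reads per library were counted on genes. The summed level of 4 Y-linked genes exceeded 10 CPM (read counts scaled to the library total) in 9 of the 40 libraries, at up to 179 CPM, although the recipients are described as female. These 9 libraries were spread over the groups, with 3 in pre-KD hippocampus and 2 in each of the other groups. Neuronal markers were high throughout, with 10 of them summing to 5990 to 8030 CPM. Of the hippocampal markers, 5 of 8 were higher in hippocampus at an adjusted p under 0.05. The frontal cortical list did not separate the regions, with 2 of 8 genes lower and 2 higher in hippocampus and sums of 291 to 640 CPM in hippocampus against 319 to 617 CPM in frontal cortex. Choroid plexus, which expresses NKCC1 strongly, was unevenly present: 7 of its 10 markers passed as higher in hippocampus, and their sum ranged from 738 to 5716 CPM in hippocampal libraries against 131 to 902 CPM in frontal cortical ones. All 6 striatal markers tested were higher in the frontal cortical libraries, where they summed to 392 to 919 CPM against 49.3 to 255 CPM in hippocampus. In bulk tissue, fewer cells of a type and less RNA per cell cannot be told apart.

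All 7 genes were detected, at very different levels. Levels per kilobase of annotated exon allow genes to be compared with each other in whole-transcript libraries. On this scale *Slc12a5* had the highest mean level over the 40 libraries (27.2 ± 5.66 CPM per kb, SD), followed by *Stk39* (25.5 ± 7.24), *Clcn3* (13.97 ± 2.32), *Wnk1* (11.7 ± 1.80), *Slc12a2* (6.57 ± 2.60), *Wnk2* (5.34 ± 2.08) and *Clcn2* (1.46 ± 1.36). The top of this order was not resolved: *Slc12a5* was above *Stk39* in 20 of 40 libraries. *Slc12a2* was above *Wnk2* in 26 of 40, whereas *Stk39* was above *Clcn3* in 36, *Clcn3* above *Wnk1* in 31, *Wnk1* above *Slc12a2* in 39 and *Wnk2* above *Clcn2* in 37. The transcript of the chloride exporter KCC2 was above that of the importer NKCC1 by this measure in all 40 libraries. The annotation gives *Slc12a5* 2 start sites and *Clcn3* 2 in RefSeq, and counts per gene merge their transcripts. The labels name a whole-transcript library kit, while the study's list of reagents names one that reads transcript ends, for which a division by exon length would not hold. In CPM without this division, *Wnk1* (267) and *Clcn3* (238) had the highest means over the 40 libraries. *Slc12a5* (203), *Stk39* (126), *Slc12a2* (71.7), *Wnk2* (45.3) and *Clcn2* (8.78) followed. By mean CPM the orders of *Stk39* against *Clcn3* and of *Clcn3* against *Wnk1* are therefore reversed.

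**Figure D1:**
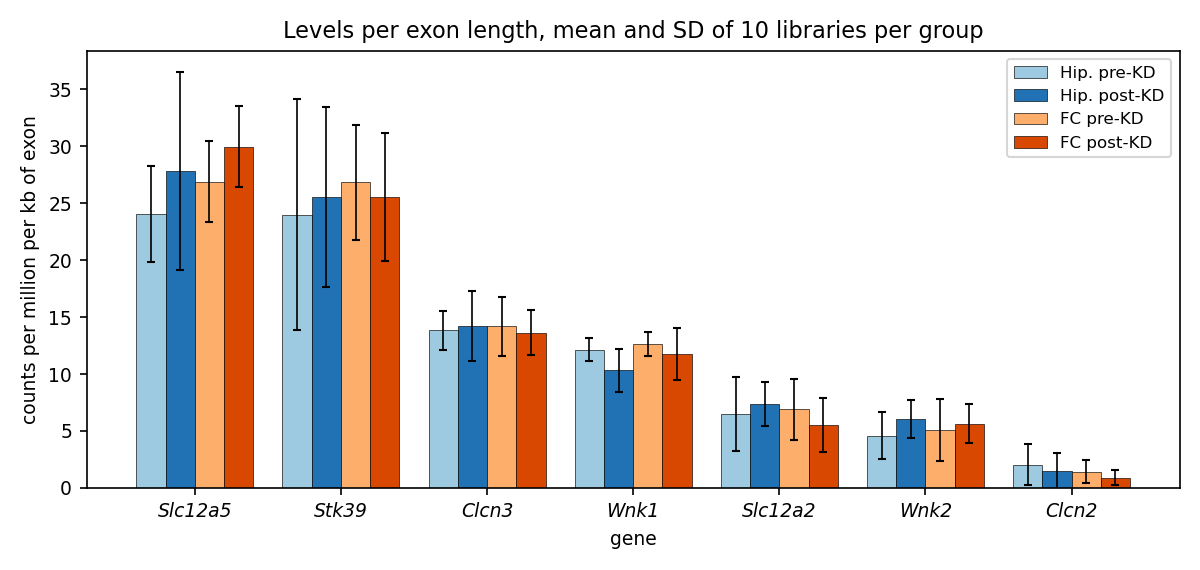
Mean level of each gene in CPM per kilobase of exon (vertical axis, linear), with bars for the 4 groups of 10 libraries and lines for 1 SD. *Slc12a5* and *Stk39* overlap at the top of this scale, with means over all libraries of 27.2 and 25.5, and *Clcn2* is lowest at 1.46. In CPM without division by exon length, *Wnk1* and *Clcn3* have the highest means, 267 and 238. Hip., hippocampus; FC, frontal cortex.

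Libraries of 1 group differed from each other far more for some genes than for others. *Slc12a2* had a coefficient of variation of 50.5% in pre-KD hippocampus, 26.4% in post-KD hippocampus, 38.6% in pre-KD frontal cortex and 42.6% in post-KD frontal cortex, while counting error alone would give 8.98% to 9.76%. *Wnk1* was the steadiest of the 7 in pre-KD tissue, at 8.08% in hippocampus and 8.26% in frontal cortex, against 4.73% and 4.62% from counting. *Clcn2* was the most variable, at 68.9% to 111%, with at most 53 reads in a library and none in 3 of 40. Those 3 libraries, all hippocampal, could each hold up to 3 reads by chance, or 1.82 to 2.63 CPM (limits that cover counting error only).

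Whether the chloride genes differ in mice given post-KD and pre-KD stool was first compared in the hippocampus. *Wnk1*, the steadiest gene pre-KD, had a lower mean post-KD (236 ± 43.2 against 277 ± 22.4 CPM, SD, n = 10), and *Slc12a5*, *Slc12a2* and *Wnk2* had higher means. No gene differed beyond the spread between cohorts: 0 of 7 reached an unadjusted p under 0.05 in edgeR's quasi-likelihood test, where 10.1% of the 17529 genes tested did. That share depends on the filter for low counts. With the stricter filterByExpr, 221 genes were called in place of 1762, and again 0 of 7. None reached an adjusted p under 0.05 (Benjamini-Hochberg, lowest 0.766), which 0.0057% of genes did, a single gene. The median log2 fold change was 0.08 over the 7 genes and -0.01 over all genes tested.

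The importer gene *Slc12a2* ranged from 26.5 to 139 CPM in pre-KD hippocampus, with a median of 57.8, and from 58.2 to 117 CPM in post-KD hippocampus, with a median of 75.6. All post-KD libraries lay inside the pre-KD range, and the post-KD cohort was higher for 7 of 10 donors. Its log2 fold change was 0.18 (SE 0.27, 95% confidence interval -0.35 to 0.70, p = 0.511, adjusted p = 0.9998, edgeR). This value ran from 0.05 without donor 10 and 0.06 without donor 2 to 0.38 without donor 3, and was 0.29 in edgeR and 0.31 in DESeq2 with the donor as a block. *Slc12a5* ranged from 140 to 232 CPM pre-KD, with a median of 166, and from 121 to 349 CPM post-KD, with a median of 189. The post-KD libraries were more scattered, with 3 above and 1 below every pre-KD library, and 6 of 10 donors were higher post-KD. The log2 fold change of *Slc12a5* was 0.20 (SE 0.17, interval -0.14 to 0.55, p = 0.251, adjusted p = 0.974, edgeR), and 0.09 without donor 6, whose post-KD library was the highest. An increase of KCC2 transcript of up to 1.46-fold and a decrease to 0.905 of the pre-KD level both lie within the interval over all donors.

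Among the kinases, *Wnk1*, the broadly expressed chloride-sensing WNK kinase, gave the clearest shift of a group. It ranged from 250 to 309 CPM in pre-KD hippocampus, with a median of 274, and from 180 to 304 CPM post-KD, with a median of 221. The groups overlapped, but 7 of 10 post-KD libraries lay below the lowest pre-KD library, 7 of 10 donors were lower post-KD, and the SD was 43.2 CPM against 22.4 CPM. Its log2 fold change was -0.24 (SE 0.15, interval -0.54 to 0.06, p = 0.115, adjusted p = 0.766, edgeR). This result depended on the model: the unadjusted p was 0.0313 in DESeq2, 0.0395 in DESeq2 with the donor as a block and 0.0102 in limma-voom with quality weights, whereas the adjusted p ranged from 0.639 to 1 over 10 alternative fits. Summed neuronal markers had medians of 6785 CPM pre-KD and 6844 CPM post-KD. Once the mean of each condition was removed, *Wnk1* followed them over the 20 hippocampal libraries with r = 0.63, but had r = -0.15 in frontal cortex. Summed striatal markers had medians of 161 and 120 CPM and oligodendrocyte markers 2791 and 2571 CPM, with r = 0.05 and -0.04 to *Wnk1* in hippocampus. Immature neuron and microglial markers had r = 0.51 and 0.41 to *Wnk1* in hippocampus, and -0.20 and 0.09 in frontal cortex. The part of cell content in the *Wnk1* value was not tested.

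*Wnk2*, a WNK kinase enriched in brain, ranged from 13.8 to 64.8 CPM pre-KD, with a median of 43.2, and from 29.0 to 72.1 CPM post-KD, with a median of 52.6. The lowest values were all pre-KD, and 2 post-KD libraries lay above every pre-KD one. The log2 fold change of 0.39 had an SE of 0.34 and an interval of -0.29 to 1.06 (p = 0.257, adjusted p = 0.980, edgeR), and was 0.24 without donor 5. *Stk39* ranged from 36.4 to 186 CPM pre-KD, with a median of 123, and from 63.6 to 179 CPM post-KD, with a median of 128. All post-KD libraries lay inside the pre-KD range, and the log2 fold change was 0.08 (SE 0.22, interval -0.35 to 0.52, p = 0.712, edgeR). Its sign turned without donor 5, whose pre-KD library was the lowest, to -0.09, and it was 0.25 without donor 8.

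Of the channels, *Clcn3* ranged from 194 to 287 CPM pre-KD, with a median of 231, and from 128 to 308 CPM post-KD, with a median of 248. Both medians lay close together beside these ranges, and the log2 fold change was 0.03 (SE 0.16, interval -0.28 to 0.35, p = 0.831, edgeR). *Clcn2* ranged from 0 to 38.6 CPM pre-KD, with a median of 8.34, and from 0 to 29.5 CPM post-KD, with a median of 4.16. Its log2 fold change of -0.49 had an interval of -2.19 to 1.22 (SE 0.86, p = 0.569, edgeR), so neither a large fall nor a rise was excluded. It was -0.98 without donor 8, -0.25 without donor 6, -0.27 without donor 5, and -0.86 in edgeR and -0.88 in DESeq2 with the donor as a block. The *Clcn2* libraries varied by 88.4% pre-KD and 111% post-KD, against 22.8% and 27.8% from counting error. Exons of *Clcn2* overlap those of *Polr2h* over 82 bp and those of *Fam131a* over 85 bp on the opposite strand, 1.36% and 1.41% of its exon length.

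**Figure D2:**
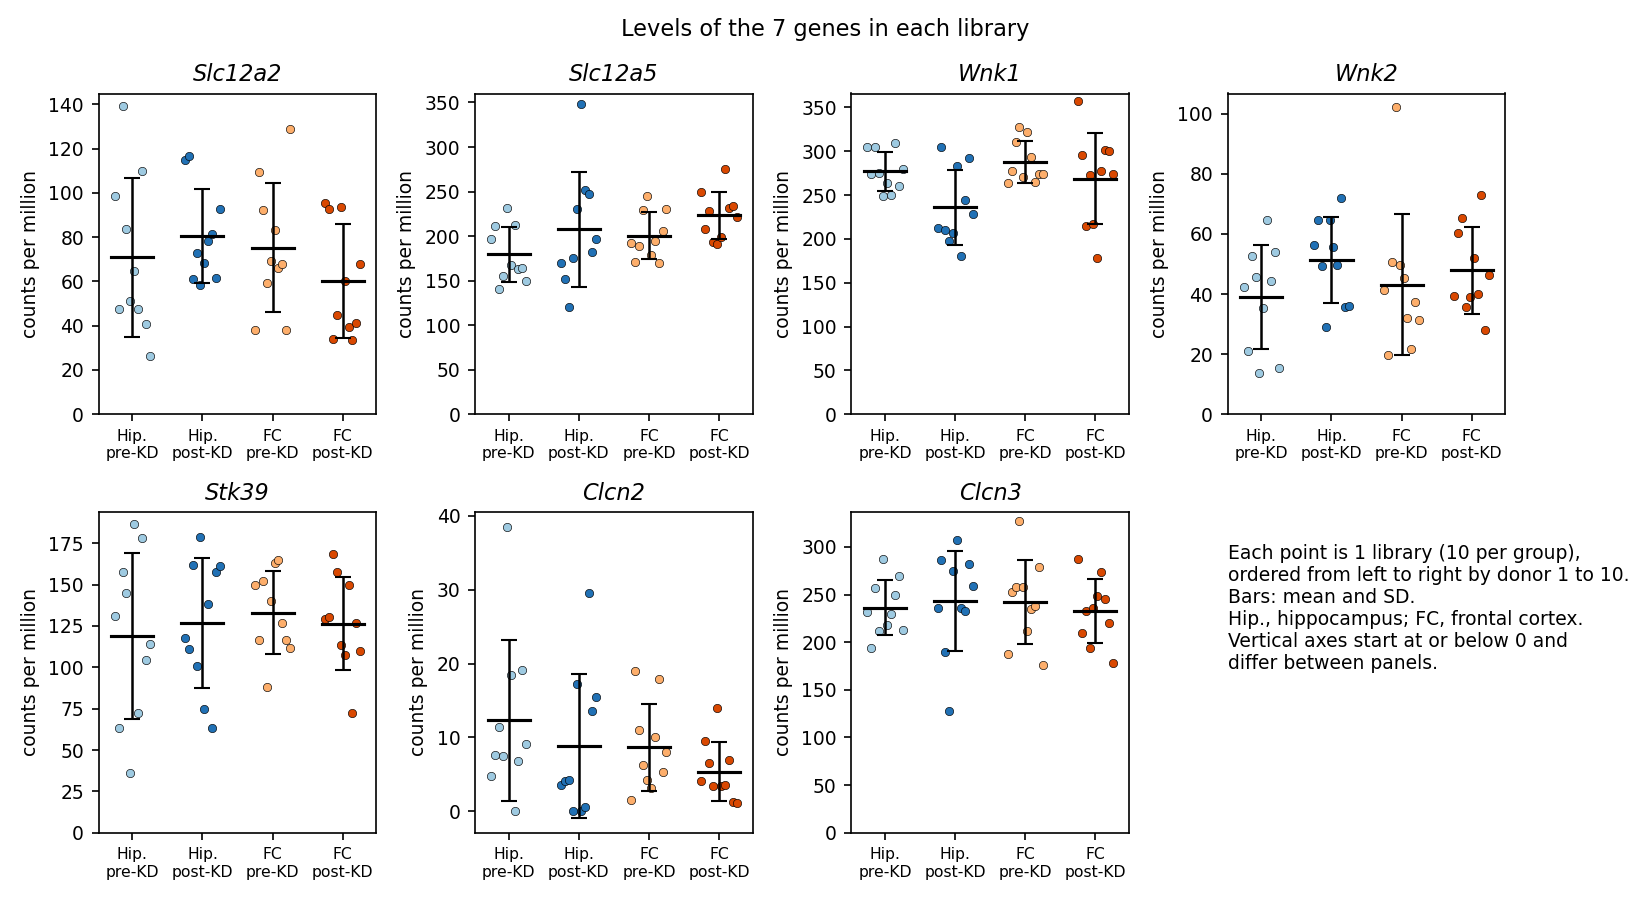
Level of each of the 7 genes in CPM (vertical axes, linear, different for each panel) in the 40 libraries; each point is 1 library, ordered by donor within a group, with the mean and SD of 10 libraries as lines. In pre-KD hippocampus *Wnk1* sits between 250 and 309, and 7 of 10 post-KD libraries are below that range, while *Slc12a2* overlaps fully between the hippocampal groups.

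In the frontal cortex, too, 0 of 7 genes reached an unadjusted p under 0.05, against 9.68% of the 17873 genes tested. With filterByExpr 407 genes were called in place of 1731, and again 0 of 7. An adjusted p under 0.05 was reached by 0 of 7, against 0.0056% of genes. The lowest adjusted p of the 7 was 0.820 in edgeR, and DESeq2 and limma-voom also gave 0 of 7 by either threshold. Of the 17873 genes fitted, DESeq2 and limma-voom called 825 and 1071 at the unadjusted threshold and 2 and 3 at the adjusted one. The median log2 fold change was -0.08 over the 7 genes and 0.01 over all genes. The cotransporters had opposite signs here, with a lower mean of *Slc12a2* (60.3 ± 25.6 against 75.3 ± 29.1 CPM, SD, n = 10) and a higher mean of *Slc12a5* (223 ± 26.5 against 200 ± 26.3 CPM) post-KD, both within the spread between cohorts.

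*Slc12a2* ranged from 38.0 to 129 CPM in pre-KD frontal cortex, with a median of 68.5, and from 33.6 to 95.5 CPM post-KD, with a median of 52.4. Only 2 post-KD libraries lay below every pre-KD one, and 3 of 10 donors were higher post-KD. The log2 fold change was -0.33 (SE 0.23, interval -0.77 to 0.12, p = 0.150, adjusted p = 0.820, edgeR). Without donor 1, whose post-KD library had the highest *Slc12a2* of its group, it was -0.50 with an unadjusted p of 0.0295 in edgeR and an adjusted p that did not pass. *Slc12a5* ranged from 170 to 245 CPM pre-KD, with a median of 193, and from 191 to 275 CPM post-KD, with a median of 225. Here 2 post-KD libraries lay above every pre-KD one and 7 of 10 donors were higher. The log2 fold change of *Slc12a5* was 0.15 (SE 0.12, interval -0.09 to 0.39, p = 0.216, adjusted p = 0.897, edgeR), which bounds a rise at 1.31-fold and a fall at 0.939 of the pre-KD level.

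*Wnk1* ranged from 264 to 327 CPM pre-KD, with a median of 276.0, and from 178 to 357 CPM post-KD, with a median of 275.8. The medians were almost equal while the post-KD libraries were again more scattered, with an SD of 52.2 CPM against 23.8 CPM, and 3 of them lay below and 1 above every pre-KD library. Its log2 fold change was -0.10 (SE 0.12, interval -0.34 to 0.13, p = 0.387, edgeR), and -0.17 without donor 1 and -0.03 without donor 6. *Wnk2* ranged from 19.7 to 102 CPM pre-KD, with a median of 39.3, and from 27.9 to 72.9 CPM post-KD, with a median of 43.3, for a log2 fold change of 0.14 (SE 0.26, p = 0.581, edgeR) that became -0.02 without donor 8, 0.01 without donor 2 and 0.42 without donor 4, whose pre-KD library was the highest. *Stk39* ranged from 88.2 to 165 CPM pre-KD, with a median of 133, and from 72.3 to 168 CPM post-KD, with a median of 128. Its log2 fold change of -0.08 had an interval of -0.38 to 0.23 (p = 0.622, edgeR), and was -0.17 without donor 4 and -0.02 without donor 6.

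*Clcn3* ranged from 176 to 327 CPM pre-KD, with a median of 245, and from 178 to 287 CPM post-KD, with a median of 234. All post-KD libraries lay within the pre-KD range, and the log2 fold change was -0.06 (SE 0.12, interval -0.31 to 0.18, p = 0.612, edgeR). *Clcn2* ranged from 1.56 to 18.97 CPM pre-KD, with a median of 7.08, and from 1.13 to 13.99 CPM post-KD, with a median of 3.78. Its mean was lower post-KD in both regions, but the log2 fold change of -0.68 in the frontal cortex had an interval of -2.12 to 0.76 (SE 0.72, p = 0.344, edgeR), and was -1.04 without donor 5, whose post-KD library was the highest.

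**Figure D3:**
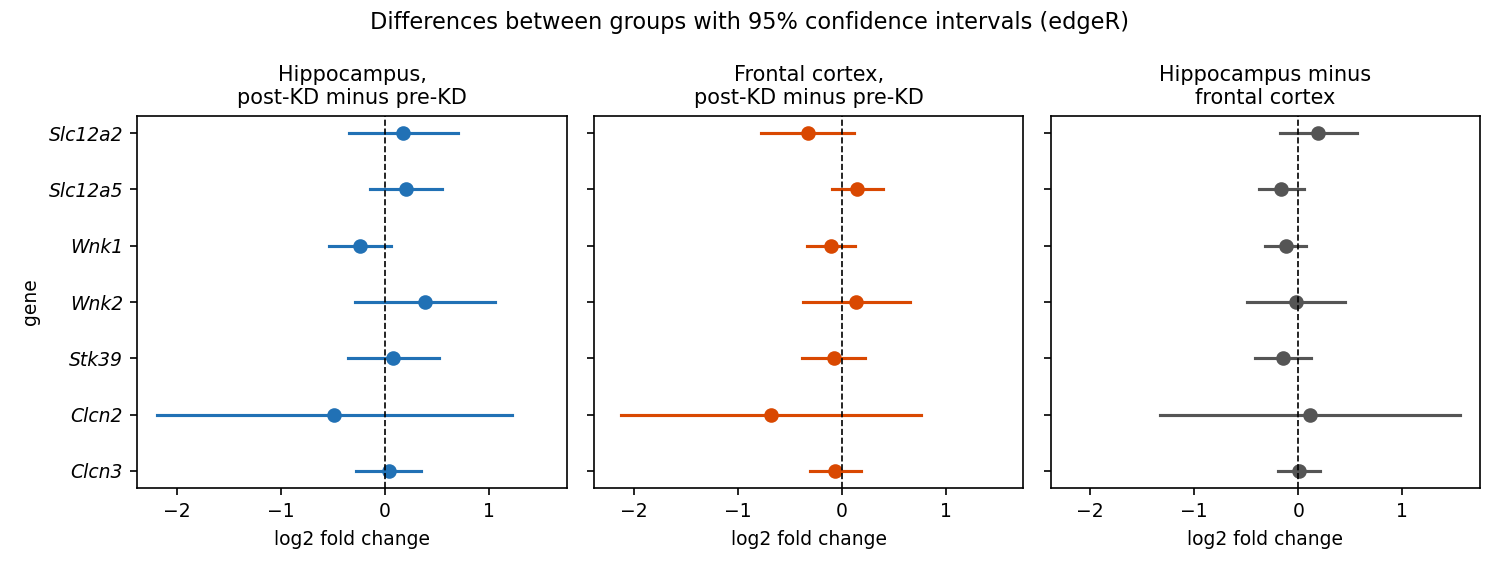
Log2 fold change of each gene (points) with its 95% confidence interval (lines) from edgeR, for post-KD minus pre-KD in hippocampus and in frontal cortex and for hippocampus minus frontal cortex. Every interval crosses 0; the narrowest belong to *Clcn3*, *Wnk1* and *Slc12a5* and the widest to *Clcn2*.

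Whether the change post-KD differed between the regions was tested in the same cohorts. The difference in log2 fold change, hippocampus minus frontal cortex, had its smallest p for *Slc12a2*, at 0.63 (SE 0.38, interval -0.12 to 1.37, p = 0.0988, adjusted p = 1, edgeR). For *Slc12a5* it was 0.01 (SE 0.22, interval -0.43 to 0.45) and for *Wnk1* -0.13 (SE 0.20, interval -0.52 to 0.26). Of the 7 genes, 0 had an unadjusted p under 0.05, against 2.22% of the 19422 genes tested, and 0 an adjusted p under 0.05, against 0.0154%.

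The regions themselves were compared within cohorts, each cohort giving 1 hippocampal and 1 frontal cortical library. No difference between the regions was detected for the 7 genes: 0 of 7 passed an adjusted p under 0.05, against 2.85% of 19422 genes, and 0 an unadjusted p under 0.05, against 10.9% (edgeR). DESeq2 gave 0 of 7 by both thresholds, and its count over all genes at the adjusted threshold is given with the alternatives below. The median log2 difference over the 7 genes was -0.02, while it was -0.17 over all genes tested and -0.11 over 10277 genes with substantial counts. Without the cohorts as blocks the median over those 10277 genes was -0.01, so the level against which the 7 genes are read depends on the fit.

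*Slc12a2* ranged from 26.5 to 139 CPM in hippocampus, with a median of 70.7, and from 33.6 to 129 CPM in frontal cortex, with a median of 67.0. It was higher in hippocampus in 14 of 20 cohorts, with a log2 difference of 0.19 (SE 0.19, interval -0.18 to 0.56, p = 0.308, adjusted p = 0.785, edgeR), beside choroid plexus markers that were far higher there, whose part in this value was not tested. *Slc12a5* ranged from 121 to 349 CPM in hippocampus, with a median of 179, and from 170 to 275 CPM in frontal cortex, with a median of 207. It was higher in hippocampus in 6 of 20 cohorts, with a log2 difference of -0.16 (SE 0.11, interval -0.38 to 0.06, p = 0.143, adjusted p = 0.680, edgeR). Of 10 neuronal markers, 2 were lower in hippocampus at an adjusted p under 0.05 and 0 higher, whereas within a region *Slc12a5* ran against their sum over 20 libraries, with r = -0.29 in hippocampus and -0.66 in frontal cortex. The part of neuronal content in the *Slc12a5* value was not tested.

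*Wnk1* had a median of 263 CPM in hippocampus and 276 CPM in frontal cortex, and was higher in hippocampus in 5 of 20 cohorts (log2 difference -0.12, SE 0.10, interval -0.32 to 0.08, p = 0.230, edgeR). *Stk39* had medians of 124 and 128 CPM, with a log2 difference of -0.15 (SE 0.14, interval -0.42 to 0.12, p = 0.281, edgeR; -0.08 without the cohorts as blocks), and its libraries spread more in hippocampus, with an SD of 44.0 CPM against 26.0 CPM. *Clcn3* had medians of 236 and 237 CPM and was higher in hippocampus in 10 of 20 cohorts, and its log2 difference of 0.01 (SE 0.10) was bounded by -0.20 and 0.21. *Wnk2* had medians of 47.4 and 40.7 CPM and a log2 difference of -0.02 (SE 0.24, interval -0.49 to 0.45), whose sign changed with the scaling. *Clcn2* had medians of 7.56 and 5.77 CPM, with a log2 difference of 0.11 and an interval of -1.33 to 1.56 that covers either order. Without the cohorts as blocks this difference was 0.61.

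The ratio of *Slc12a5* to *Slc12a2* counts was above 1 in all 40 libraries. In neurons such a ratio is often used as an RNA index of chloride extrusion against uptake and of maturity. Here it is a ratio of whole tissue, with unevenly present choroid plexus, which expresses NKCC1 strongly. The part of cell content in the ratio was not tested. In pre-KD hippocampus it ranged from 1.01 (donor 3) to 5.57 (donor 10), with a median of 3.30, and in post-KD hippocampus from 1.30 to 5.07, with a median of 2.67. In pre-KD frontal cortex it ranged from 1.56 to 5.37, with a median of 2.72, and in post-KD frontal cortex from 2.04 to 6.93, with a median of 3.81. Corrected for exon length, which holds only for a whole-transcript kit, the geometric means were 4.09 and 3.72 in pre-KD and post-KD hippocampus. In the frontal cortex they were 4.14 and 5.83. *Slc12a2*, the denominator, had the larger coefficient of variation of the pair in 3 of the 4 groups, and in post-KD hippocampus the coefficients were 26.4% for *Slc12a2* and 31.2% for *Slc12a5*.

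Post-KD and pre-KD cohorts differed in this ratio by less than the spread between cohorts in both regions. In hippocampus the mean log2 ratio was 1.34 ± 0.61 post-KD and 1.48 ± 0.83 pre-KD (SD, n = 10), a difference of -0.14 (95% interval -0.82 to 0.55, two-sided permutation test, p = 0.676), and 4 of 10 donors were higher post-KD. This difference was 0.04 without donor 2 and 0.003 without donor 10. In frontal cortex it was 1.99 ± 0.68 post-KD and 1.498 ± 0.617 pre-KD, a difference of 0.49 (interval -0.12 to 1.12, two-sided permutation test, p = 0.107), or 1.41-fold (interval 0.920 to 2.17), and 8 of 10 donors were higher post-KD. Without donor 1 it was 0.65 with a permutation p of 0.0470, the only donor whose omission took it under 0.05. No difference between regions in this change was detected (hippocampus minus frontal cortex -0.63, interval -1.53 to 0.24, two-sided permutation test over 20 cohorts, p = 0.154, a comparison added after the data were seen). Between regions the log2 ratio was lower in hippocampus by a mean of -0.33 (interval -0.79 to 0.13, two-sided paired permutation test, p = 0.143) and higher there in 7 of 20 cohorts.

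**Figure D4:**
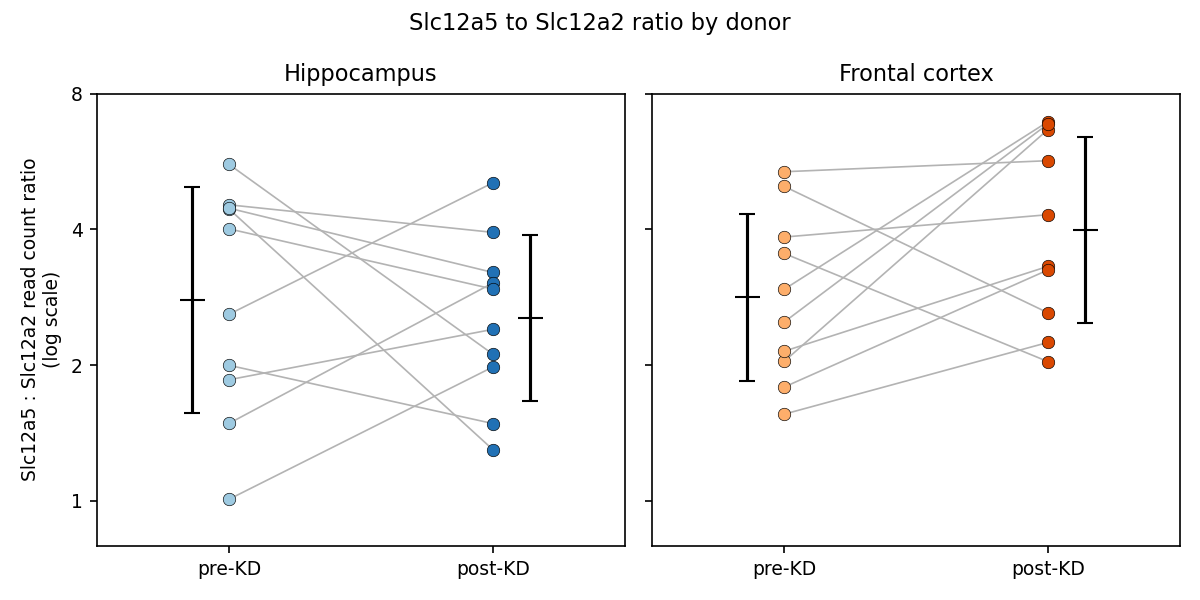
Ratio of *Slc12a5* to *Slc12a2* read counts (vertical axis, log scale) in each library, with grey lines joining the pre-KD and post-KD cohorts of a donor; bars beside the points give the geometric mean and 1 SD on the log2 scale over 10 libraries. In frontal cortex 8 of 10 lines rise and the groups still overlap; in hippocampus 4 of 10 rise.

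How the cotransporters and the kinase that acts on them varied together was examined in the 20 libraries of each region after removing the mean of each condition, as 6 relations on log2 CPM. *Slc12a2* and *Slc12a5* were weakly and negatively related in both, with Pearson r = -0.18 in hippocampus (permutation p = 0.362, adjusted 0.631) and r = -0.19 in frontal cortex (permutation p = 0.421, adjusted 0.631), and Spearman rho of -0.22 (permutation p = 0.329, adjusted 0.554) and -0.21 (permutation p = 0.380, adjusted 0.554). Leaving out the 2 libraries with the most extreme *Slc12a2* gave r = -0.24 and -0.33. *Stk39* and *Slc12a5* had r = -0.56 in hippocampus (permutation p = 0.00497, adjusted 0.0298), with rho = -0.44 (permutation p = 0.0481, adjusted 0.288) and r = -0.47 without the 2 libraries most extreme in *Stk39*. The same pair had r = -0.13 in frontal cortex (permutation p = 0.605, adjusted 0.726), with rho = -0.14 (permutation p = 0.554, adjusted 0.554) and r = 0.08 without 2 libraries. Whether r differs between the regions was not tested. In hippocampus the summed oligodendrocyte markers varied along with both genes, with r = 0.68 to *Slc12a5* and -0.62 to *Stk39*, and their part in the relation was not tested. *Stk39* and *Slc12a2* had r = 0.32 in hippocampus (permutation p = 0.234, adjusted 0.631; rho = 0.30, permutation p = 0.240, adjusted 0.554; r = 0.35 without 2 libraries). In frontal cortex they had r = -0.04 (permutation p = 0.881, adjusted 0.881; rho = -0.17, permutation p = 0.494, adjusted 0.554; r = -0.41 without 2 libraries).

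The deviation of each gene in hippocampus was also set against its deviation in frontal cortex of the same cohort. Over 20 cohorts this r was 0.00 for *Slc12a2*, -0.03 for *Slc12a5*, -0.06 for *Clcn2* and *Wnk1*, 0.20 for *Clcn3*, 0.21 for *Stk39* and 0.29 for *Wnk2*, given as a description of pools of the same mice. The genes whose pattern across libraries was most like that of *Slc12a2*, by the mean of the r in both regions over 4453 genes averaging at least 50 counts, were *Gpr89* (0.71), *Wdr47* (0.61) and *Clu* (0.59), against a median of 0.07 over those genes. For *Slc12a5* they included the mitochondrial ADP/ATP carrier gene *Slc25a5* (0.56) and *Camk2g* (0.52), a subunit of calcium/calmodulin-dependent kinase II, against a median of -0.05. All these are the top values of 4453 genes, and whether they exceed what chance would give was not tested.

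The rest of the chloride machinery was examined in 5 lists of genes. Of these 55 other genes, 54 were found in the tables, 24 had reads in all 40 libraries and 2, *Bsnd* and *Lrrc8e*, had none. Across the 5 lists, 1 of 46 genes tested in hippocampus and 2 of 49 in frontal cortex had an unadjusted p under 0.05 post-KD against pre-KD, where 10.1% and 9.68% of all genes did with the same minimum of 10 reads, and 0 passed the adjusted threshold (edgeR). By list, these were 0 of 4 and 1 of 6 other cation-chloride cotransporters, 0 of 8 and 1 of 9 other CLC proteins, 0 of 12 and 0 of 12 other WNK pathway genes, 1 of 13 and 0 of 13 volume-regulated, calcium-activated and other anion channels, and 0 of 9 and 0 of 9 bicarbonate-coupled chloride transporters and carbonic anhydrases.

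Of the genes below that threshold, *Ano2* and *Slc12a3* were both close to absent. *Ano2*, a calcium-activated chloride channel, had 13 reads in 3 pre-KD hippocampal libraries, 11 of them in the library of donor 2, and 0 in post-KD ones, while the frontal cortical groups had 22 and 28 reads. *Slc12a3*, the thiazide-sensitive cotransporter of the kidney, had 10 reads, all in the pre-KD frontal cortical library of donor 4, and 0 post-KD. Both genes met the minimum of 10 reads only through their pre-KD reads, and mostly or wholly through 1 library, so their direction was set by that filter and their test says nothing about the post-KD stool.

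Relatives of the 7 genes in these lists ranged from well to poorly measured. The KCC1 gene *Slc12a4* averaged 1.61 ± 2.12 CPM per kb over 40 libraries, below *Slc12a5*, and had reads in 31 of them. *Oxsr1*, the close relative of *Stk39*, averaged 3.97 ± 2.34, and the WNK kinases *Wnk3* and *Wnk4* 2.07 ± 1.198 and 0.605 ± 0.976, below *Wnk1* and *Wnk2*, with *Wnk4* read in 20 of 40 libraries. The endosomal exchanger gene *Clcn4* averaged 16.04 ± 3.90, in the range of *Clcn3* on this scale. Without the division by exon length, *Clcn4* averaged 138 CPM and *Clcn3* 238 CPM. These genes were picked for their kinship with the 7 genes and not by their differences.

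Between regions, 2 of 50 genes of the wider lists passed an adjusted p under 0.05, both lower in hippocampus, where 2.85% of all genes passed. *Clcn5*, an endosomal chloride/proton exchanger, ranged from 0 to 24.1 CPM in hippocampus, with a median of 6.50, and from 2.62 to 43.6 CPM in frontal cortex, with a median of 16.8 (log2 difference -1.90, adjusted p = 0.0218, edgeR; 0.0688 without donor 2 and 0.0562 without donor 4). *Ppp1ca*, a catalytic subunit of protein phosphatase 1, which removes phosphate from the cotransporters, ranged from 10.5 to 208 CPM in hippocampus, with a median of 120, and from 119 to 214 CPM in frontal cortex, with a median of 164 (log2 difference -0.65, adjusted p = 0.000157, edgeR). Both regions' libraries overlapped for each gene. Counted by list, 0 of 7 other cation-chloride cotransporters, 1 of 9 CLC proteins, 1 of 12 WNK pathway genes, 0 of 13 other anion channels and 0 of 9 bicarbonate-coupled transporters and carbonic anhydrases passed.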

How the data were processed

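Hippocampus and frontal cortex were each represented by 1 table of raw read counts per gene and library, deposited without normalization. According to the methods and processing notes, the authors trimmed the reads, checked them with FastQC 0.11.5, aligned them to mm10 with STAR 2.5.2a and counted them with HTSeq 0.6.0, and each library pooled RNA of several mice. Symbols, positions and exon lengths were taken from GENCODE M21, and numbers of start sites from RefSeq. Groups came from the sample titles. All 40 columns were used, and 0 of 180 within-group library pairs were identical.

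The test was edgeR 4.0.16's quasi-likelihood F test with TMM scaling (R 4.3.3), on all genes whose counts in the fit summed to at least 10. Post-KD was compared with pre-KD over the 20 libraries of a region, and the regions over all 40, with the 20 cohorts as blocks, as was the difference between regions in the change. Adjusted p values follow Benjamini and Hochberg and cover every gene tested in that fit. CPM are scaled by TMM factors over all libraries, and log2 CPM used a prior count of 2. The ratio used counts plus 0.5 and permutation tests with 100000 resamples (numpy 2.4.6), and its 95% intervals hold the shifts whose permutation p, with 5000 resamples, was at least 0.05. The edgeR fit of each comparison and the DESeq2 fits of post-KD against pre-KD without a donor block were run on simulated data. The other alternative fits were not.

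Alternatives were DESeq2 1.42.0, RLE size factors, filterByExpr or no filter, a block for each donor, a covariate for the level of Y-linked genes or for donors 1 to 5 against donors 6 to 10, limma-voom (limma 3.58.1) with quality weights, omission of *Gm42418* (8.63% to 18.0% of counts), and omission of each donor. Donors pair pre-KD with post-KD cohorts by design. In genes averaging at least 20 counts, the deviations of paired libraries correlated at -0.0280 to 0.0299 in hippocampus and -0.0564 to 0.0317 in frontal cortex, with 0 of 10 pairs above 0.1 in either. The cohort, the block of the region fits, joined its libraries little more closely. Hippocampal and frontal cortical libraries of a cohort correlated at -0.0231 to 0.202, with 1 of 20 pairs above 0.1.

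The 7 genes and all lists were chosen with earlier results of these data known. In each comparison all 7 are named, and from the 5 wider lists the genes with an unadjusted p under 0.05 post-KD against pre-KD and up to 3 genes per list with the largest change among those past the adjusted threshold between regions. For *Slc12a2* and *Slc12a5* the 3 genes of most similar pattern are named. Some genes that this rule selects are not reported here. *Slc12a4*, *Oxsr1*, *Wnk3*, *Wnk4* and *Clcn4* fall outside this rule and were chosen after their values were seen.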

Additional observations from a re-analysis of the deposited data

Results flagged for a closer look

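Among 32 checks of the 7 genes and the ratio for a library far from the other 9 of its group, 2 stood apart, where about 1 in 20 would do so by chance. The pre-KD hippocampal library of donor 5 had 38.6 CPM of *Clcn2*, against 19.1 CPM in the next highest, a gap of 0.505 of the whole range of the group. The pre-KD frontal cortical library of donor 4 had 102 CPM of *Wnk2*, against 50.6 CPM in the next highest, a gap of 0.6253 of the range. The test of the difference between regions in the post-KD change gave no gene of the 7 an unadjusted p under 0.05 in edgeR.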

How the results depend on the processing

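Of the 7 genes, 0 passed the adjusted threshold in any comparison under any alternative run. In hippocampus the number under an unadjusted p of 0.05 rose from 0 to 1 with DESeq2, DESeq2 with the donor block, and limma-voom. Each time the gene was *Wnk1*, where these fits called 599, 931 and 962 of the 17529 genes fitted. In frontal cortex the number rose from 0 to 1 without donor 1, through *Slc12a2* (0 to 1 over the 10 donors left out). The fit without donor 1 called 1642 genes. The cause was not tested. The count over all genes at the adjusted threshold was more sensitive. In hippocampus it was 1, and it was 0 with DESeq2, filterByExpr or the donor as a block in edgeR or DESeq2, 1291 with no filter, where more low genes were tested, and 0 to 1 over the donors left out. In frontal cortex it was 1, and it was 2 with DESeq2, 3 with limma-voom, 3 with the donor block in edgeR and 12 with it in DESeq2. Between regions it was 554, and it was 1033 with DESeq2, 1935 without the replicate block and 447 to 555 over the donors left out. For the difference between regions in the change it was 3, against 0 with DESeq2 and 348 without the block. At an unadjusted p under 0.05, DESeq2 called 599 genes in hippocampus against 1762 and 825 in frontal cortex against 1731. With filterByExpr these counts were 221 and 407, and with the donor block in edgeR 348 and 548. With no filter they were 2931 and 3035.

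Some values changed sign. Leaving out each donor moved the hippocampal log2 fold change of *Clcn3* over -0.0146 to 0.0912 (below 0 without donors 2 and 6) and that of *Stk39* over -0.0940 to 0.249 (below 0 without donor 5), and the frontal cortical one of *Clcn3* over -0.137 to 0.0164 (above 0 without donor 4) and of *Wnk2* over -0.0232 to 0.415 (below 0 without donor 8). Between regions the ranges were -0.203 to 0.456 for *Clcn2* (below 0 without donors 5, 9 and 10), -0.0371 to 0.0768 for *Clcn3* (below 0 without donors 5, 6, 9 and 10) and -0.104 to 0.0604 for *Wnk2* (above 0 without donors 4, 5 and 10), and *Wnk2* had 0.0134 with DESeq2 and 0.0123 with RLE size factors. The difference between regions in the change of *Clcn2*, -0.52 (SE 1.47, edgeR), was 0.202 without the block. With no filter *Ano2*, with reads pre-KD only, passed in hippocampus (adjusted p = 0.0449, edgeR), against 0.9999 in DESeq2, 1 with the donor block in edgeR and 0.905 in limma-voom.

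The paired test of the ratio, with the donor as a block, gave p = 0.660 in hippocampus and 0.119 in frontal cortex (exact sign flips), and the region comparison without pairing p = 0.139 (permutation). Leaving out donors moved the difference in log2 ratio over -0.267 to 0.0446 in hippocampus, 0.36 to 0.65 in frontal cortex and -0.44 to -0.22 between regions. Other pseudocounts changed no call. The block changed no other call on the 7 genes. Counting error is largest for *Clcn2*, with 0 to 53 reads per library, at 22.8% to 33.1% against an observed variation of 68.9% to 111%.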
